A study of Mus musculus with 9 samples.

Results

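The genes of cholesterol synthesis and of its control by SREBP2 were followed in the mouse duodenum, as 28 genes taken by symbol from the 54532 genes of the count table. They comprise 20 enzymes, from acetoacetyl-CoA formation to the last steps of sterol synthesis, 6 genes of SREBP2 and its processing, and the sterol-responsive genes Stard4 and Tmem97. All 28 symbols were matched, and all 28 passed the filter on low counts. The libraries came from the duodenum of 5 Pla2g12b mutant mice and 4 WT mice, all male C57BL/6 animals kept on chow for 3 months. Pla2g12b encodes an inactive relative of the secreted phospholipases A2 that is needed for the lipidation of triglyceride-rich lipoproteins. The series title names a dominant-negative amino acid change and a role of the gene in intestinal lipid absorption, but which change these mutants carried is not in the labels.

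Cells make cholesterol from acetyl-CoA through mevalonate, isoprenoid diphosphates, squalene and lanosterol. The transcription factor SREBP2 is held in the endoplasmic reticulum with its escort SCAP, and INSIG proteins retain the complex there when sterols are plentiful. When sterols are scarce, SCAP carries SREBP2 to the Golgi, where the site-1 and site-2 proteases release the part that enters the nucleus and activates most genes of the pathway. The small intestine takes up cholesterol from food and bile, makes its own, and exports both in chylomicrons.

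Total counts were 16245982 to 17959658 reads in the mutant libraries and 16119639 to 24009157 reads in the WT libraries, so the floor of 3 reads is worth no more than 0.186 CPM (reads of a gene per library, rescaled so that libraries of different depth can be compared). In 4 pairs of libraries (mutants 2 and 3, mutants 4 and 5, WT 1 and 2, WT 3 and 4) gene counts lay far nearer to each other than in the remaining pairs of a genotype: the biological coefficient of variation was 0.037 to 0.050 within these pairs and 0.18 to 0.25 in the others. The close pairs still differed by more than sampling noise, and the labels number separate mice, so each library was kept. Fits with the counts of each close pair summed, which leaves 3 mutant and 2 WT units, are given beside the main results below. Pla2g12b itself had 134, 102, 107, 129 and 132 CPM in mutants 1 to 5, and 103, 104, 77.5 and 75.6 CPM in WT 1 to 4. Its mRNA level does not check the genotype labels, since an amino acid change need not alter it. Markers of intestinal absorptive cells were abundant in every library: 8 enterocyte genes summed to 25904 to 36032 CPM in mutants and 19649 to 24404 CPM in WT. The WT libraries also held RNA that the label duodenum does not cover. The 8 acinar genes of the exocrine pancreas summed to 0 to 15 reads per mutant library and 418052 to 895278 reads per WT library; in CPM that is under 1 in mutants and 24234 to 53004 in WT, above the enterocyte sum of each WT library. Genotype and the tissue that was sampled therefore cannot be told apart in these libraries. Summed levels were lower in all mutants than in all WT libraries for goblet cell genes (6 of 6 fell), Paneth cell genes (4 of 4), enteroendocrine genes (3 of 5), fibroblast genes (5 of 6), endothelial genes (5 of 5), macrophage and dendritic cell genes (6 of 6), T cell genes (3 of 4 tested) and plasma and B cell genes (5 of 5 tested). They were higher in all mutants for tuft cell genes (5 of 5 rose), for the 8 enterocyte genes above (3 rose and none fell) and for the 8 epithelium genes (5 rose). The epithelium genes summed to 10303 to 11883 CPM in mutants and 7674 to 9521 CPM in WT. None of the enterocyte genes passed in edgeR with close pairs summed, where 3 were higher at an unadjusted p under 0.05. With close pairs summed, the test was passed by 5 of 6 goblet, 3 of 4 Paneth, 1 of 5 enteroendocrine, 4 of 5 endothelial, 6 of 6 macrophage and dendritic, 2 of 5 T cell, 3 of 6 plasma and B cell, 5 of 5 tuft and 1 of 8 epithelium genes, and by 0 of 6 fibroblast genes in edgeR, where 5 were lower at an unadjusted p under 0.05. Smooth muscle genes overlapped, at 238 to 842 CPM in mutants and 262 to 454 CPM in WT. The mutants were split, at 713 to 842 CPM in mutants 1 to 3 and 241 and 238 CPM in mutants 4 and 5. None of 6 passed with all 9 libraries in edgeR or DESeq2 (1, Actg2, had an unadjusted p of 0.040 in edgeR). In edgeR, 5 of 6 rose without mutants 4 and 5, and 0 passed without mutants 2 and 3. In such bulk samples, fewer cells of a type and less RNA per cell cannot be told apart.

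Most of the synthesis enzymes were expressed more highly in the mutant duodenum. Of the 28 genes, 17 rose, 1 (Scap) fell and 10 did not pass the test, the quasi-likelihood test of edgeR across 15416 genes with a threshold of 0.05 on the p adjusted after Benjamini and Hochberg. Over all genes tested, 15.4% rose and 17.1% fell. All but 1 of the 17 were enzymes: 16 of 20 enzymes rose, none fell, and Fdps, Ggps1, Lbr and Nsdhl did not pass. No enzyme was lower even at an unadjusted p under 0.05, and DESeq2 gave the same counts. Of the 6 genes of SREBP2 and its processing, none rose and Scap fell in both edgeR and DESeq2, with Srebf2 alone higher at an unadjusted p under 0.05 (0.023 in edgeR). The log2 fold change, mutant over WT on CPM scaled by the trimmed mean of M-values (TMM), had a median of 0.42 over the 28 genes and 0.52 over the enzymes, against 0.01 over all genes. The background is higher among well expressed genes: of the 8631 genes with a mean of 10 CPM or more, which include 27 of the 28, 23.8% rose and 11.4% fell, with a median of 0.09. The changes were moderate in size, since the log2 fold changes of the 17 ran from 0.34 to 0.99.

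**Figure D1:**
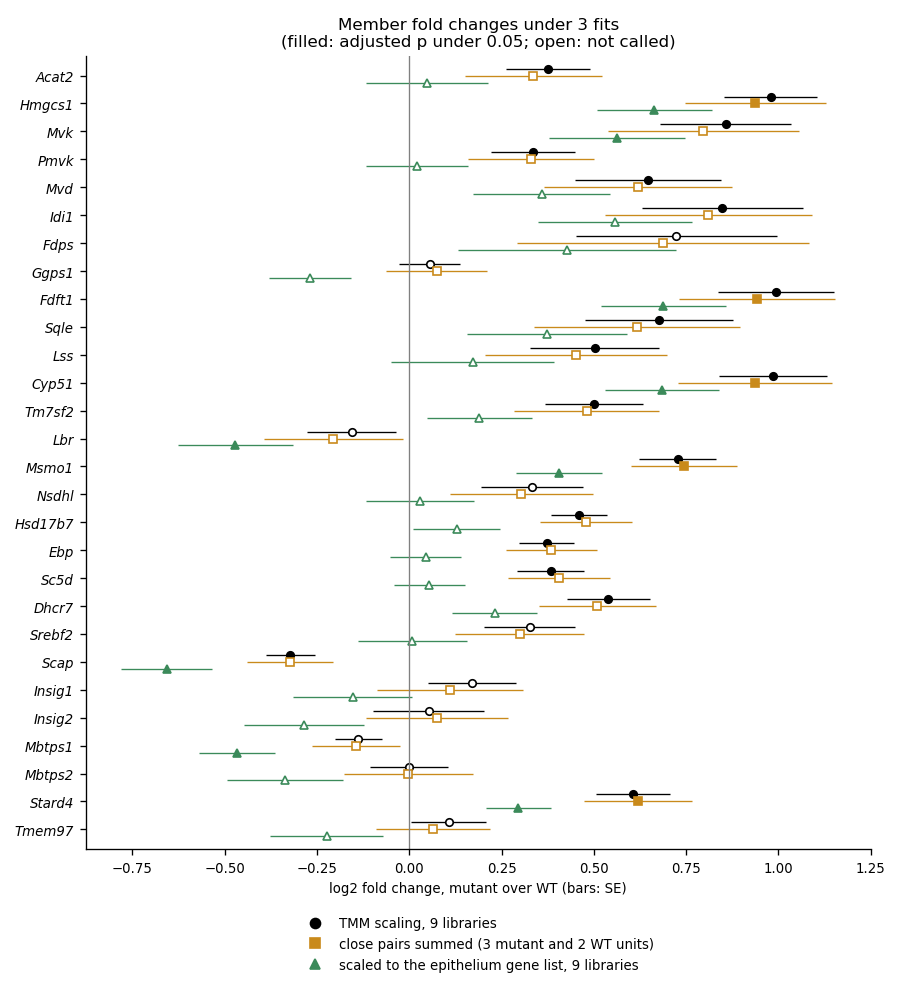
Log2 fold change of each of the 28 genes, mutant over WT, with its standard error (SE), for all 9 libraries, for close pairs summed and for scaling to epithelium genes; filled symbols passed the test. Most enzymes lie above 0 with TMM scaling, with Hmgcs1, Fdft1 and Cyp51 near 1. Scap, Mbtps1 and the enzyme Lbr lie below 0, and Mbtps2 is at -0.0007.

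The values of single libraries gave a similar count. In 13 genes every mutant library was above every WT library, in 2 genes (Scap and Mbtps1) every mutant was below every WT library, and in 13 the genotypes overlapped; over all genes, these shares were 14.4% above and 16.5% below. Of the 17 genes that rose, Acat2, Pmvk, Mvd, Sqle and Lss overlapped between genotypes. Calls rested on the close pairs counting as separate mice. With each pair summed, 5 genes rose (Hmgcs1, Fdft1, Cyp51, Msmo1 and Stard4) and none fell in edgeR (Scap had an unadjusted p of 0.023), where 2.23% of all genes rose and 6.78% fell; the other 13 calls were lost, with adjusted p from 0.051 to 0.31, while the median log2 fold change of the 28 genes was 0.43, with 24 above 0 (0.42 and 24 with 9 libraries). Modelling the pair as a random effect, limma called 11 members higher and 1 lower, where 7.6% of all genes rose and 10.7% fell. Without WT 3 and 4, 8 rose and 1 fell, where 9.1% of all genes rose and 12.4% fell. Without mutants 2 and 3, 14 rose and 1 fell, where 17.8% of all genes rose and 19.2% fell. Scaling mattered too. With libraries scaled to their summed counts of the 8 epithelium genes, the median log2 fold change of all genes moved to -0.32 and that of the 28 genes to 0.09, with 2.34% of all genes higher and 36.4% lower. On that scale Hmgcs1, Mvk, Fdft1, Cyp51, Msmo1 and Stard4 rose, and Scap, Lbr and Mbtps1 fell. The other 11 calls of a rise were lost.

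The enzymes of the mevalonate arm turn acetyl-CoA into farnesyl and geranylgeranyl diphosphate. Of 8 such genes, 6 rose and none fell, with a median log2 fold change of 0.69. Hmgcs1, HMG-CoA synthase, lies at chr13:119690379-119708260 on the plus strand (GRCm38, as all coordinates here). It had 102, 162, 156, 124 and 119 CPM in mutants 1 to 5, and 68.7, 71.0, 64.6 and 64.9 CPM in WT 1 to 4. All 5 mutants were above all 4 WT libraries, and mutant 1 was the lowest mutant. The means were 133 ± 25.3 CPM in mutants and 67.3 ± 3.12 CPM in WT (SD, n = 5 and 4), a log2 fold change of 0.98 (SE 0.13, edgeR adjusted p = 0.00019). With pairs summed it was 0.94 (adjusted p = 0.025). Mevalonate kinase, Mvk, had 19.4, 35.4, 33.3, 26.7 and 29.0 CPM in mutants, and 18.3, 18.5, 13.0 and 13.7 CPM in WT. Mutant 1 stood only just above WT 1 and 2, while the other mutants were clearly above all WT libraries. Its log2 fold change was 0.86 (SE 0.18, edgeR adjusted p = 0.0038; 0.10 with pairs summed). Idi1, the isomerase that makes dimethylallyl diphosphate, had 18.5, 31.3, 29.5, 17.4 and 19.8 CPM in mutants, and 16.1, 15.0, 10.4 and 10.2 CPM in WT. Mutants 2 and 3 were far above the other 3 mutants, which lay near WT 1 and 2. Idi1 rose by 0.85 on the log2 scale (SE 0.22, edgeR adjusted p = 0.012; 0.12 with pairs summed).

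Other genes of this arm rose less or less securely. Acat2, the cytosolic thiolase that makes acetoacetyl-CoA, averaged 25.2 ± 3.53 CPM in mutants and 19.4 ± 1.34 CPM in WT (log2 fold change 0.38, edgeR adjusted p = 0.024). Mutant 1, at 19.2 CPM, lay among the WT libraries. Pmvk, which phosphorylates mevalonate phosphate, averaged 18.4 ± 2.41 CPM in mutants and 14.6 ± 1.21 CPM in WT (log2 fold change 0.34, edgeR adjusted p = 0.041). Mvd, the decarboxylase that makes isopentenyl diphosphate, averaged 25.0 ± 4.82 CPM in mutants and 15.9 ± 4.66 CPM in WT (log2 fold change 0.65, edgeR adjusted p = 0.028). In Mvd the WT libraries themselves were split, with 18.3 and 21.3 CPM in WT 1 and 2 and 11.2 and 12.9 CPM in WT 3 and 4. Each of these calls depended on single libraries. The Acat2 call was lost without mutant 2, 4 or 5 or WT 1, 2 or 4 (adjusted p up to 0.071), that of Pmvk without any single library except mutants 1 and 4 (up to 0.12), and that of Mvd without mutant 2 or 3 or WT 3 or 4 (up to 0.084). With pairs summed, adjusted p was 0.31 for Acat2, 0.28 for Pmvk and 0.18 for Mvd.

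The isoprenoid synthases at the end of the arm did not pass the test. Fdps, farnesyl diphosphate synthase, had 1.34, 1.94, 2.36, 1.53 and 1.27 CPM in mutants, and 1.26, 1.04, 0.864 and 0.877 CPM in WT. All mutants were above all WT libraries, but these levels rest on 223 reads over the 9 libraries, and the log2 fold change of 0.72 (SE 0.27) had an edgeR adjusted p of 0.062. An Fdps pseudogene in the table held 0 reads; how reads shared by near-identical copies were treated is not given in the sources used here, so the Fdps level is uncertain. Ggps1, which makes geranylgeranyl diphosphate for protein prenylation, was at 19.2 ± 0.518 CPM in mutants and 18.4 ± 1.52 CPM in WT. Its log2 fold change was 0.06 (SE 0.08, edgeR adjusted p = 0.65), and 257 of its bases overlap Arid4b on the opposite strand.

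**Figure D2:**
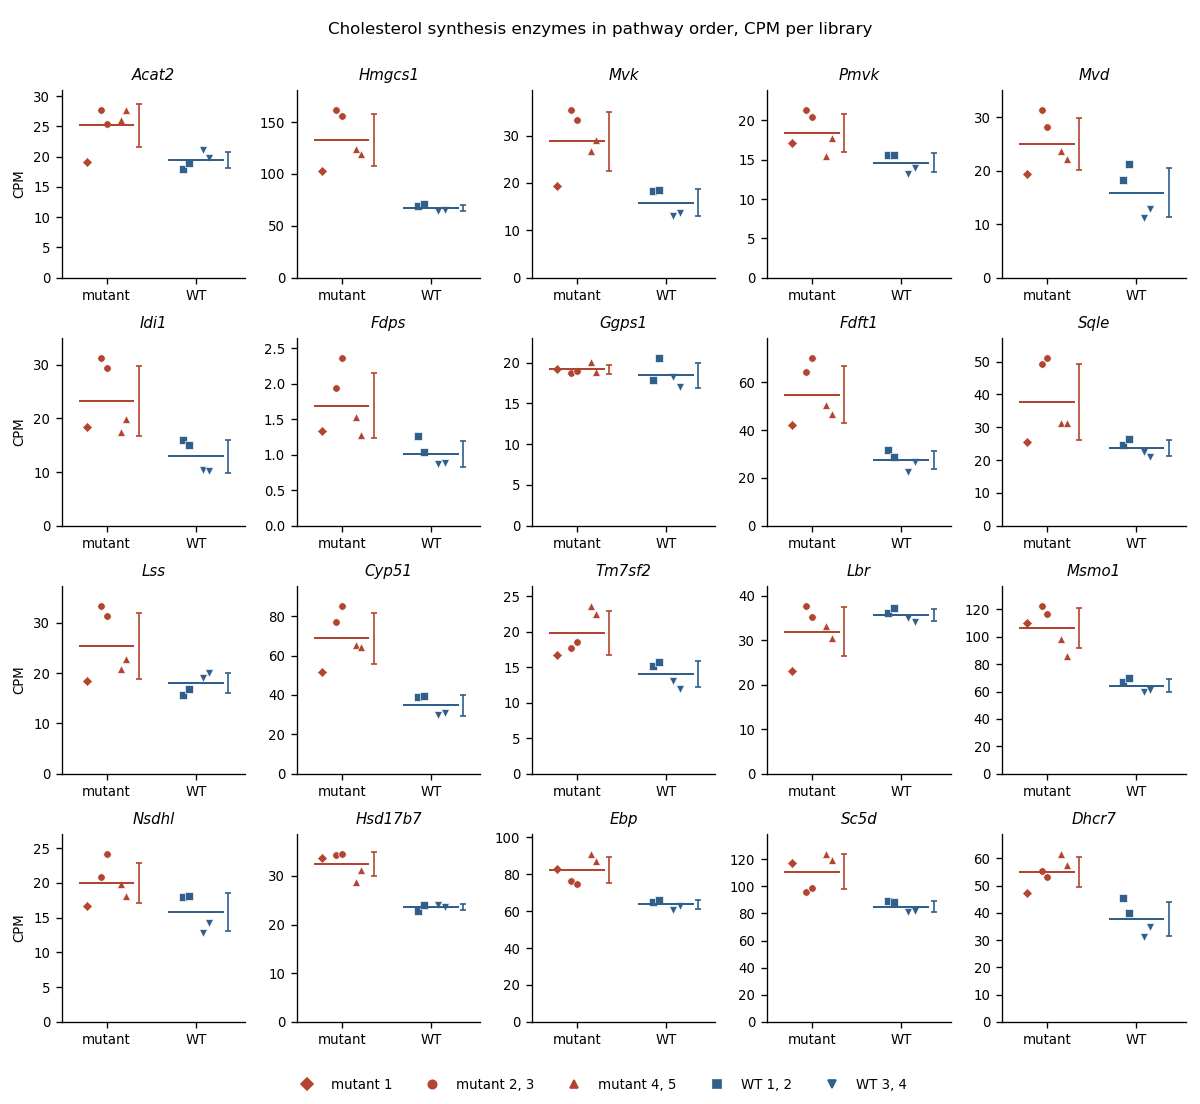
CPM of the 20 enzymes in each library, mutants left and WT right in each panel, with 1 point per library, shaped by close pair, a line at the mean and a bracket for the SD. In Hmgcs1, Fdft1, Cyp51 and Msmo1 the 5 mutants sit above the 4 WT libraries, and in Ggps1 and Lbr the genotypes overlap.

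Squalene synthesis and its conversion to lanosterol commit carbon to sterols. Fdft1, squalene synthase, lies at chr14:63145150-63179578 on the minus strand. It had 42.0, 64.1, 70.2, 50.4 and 46.9 CPM in mutants 1 to 5, and 31.6, 28.9, 22.7 and 26.6 CPM in WT 1 to 4. The genotypes did not overlap, and the log2 fold change was 0.99 (SE 0.16, edgeR adjusted p = 0.00081; 0.035 with pairs summed). Fdft1 shares 774 bases with Ctsb on the opposite strand, and the libraries do not mark strand; the far more abundant Ctsb had a log2 fold change of 0.12 (SE 0.09, edgeR adjusted p = 0.36). Sqle, squalene epoxidase, had 25.6, 49.2, 51.1, 31.2 and 31.4 CPM in mutants, and 24.6, 26.4, 22.3 and 21.1 CPM in WT. Mutants 2 and 3 were well above every other library, and mutant 1 lay among the WT libraries. Sqle rose by 0.68 on the log2 scale (SE 0.20, edgeR adjusted p = 0.026). Lss, which cyclizes squalene epoxide to lanosterol, averaged 25.4 ± 6.63 CPM in mutants and 18.0 ± 1.97 CPM in WT (log2 fold change 0.50, edgeR adjusted p = 0.048), and mutant 1, at 18.4 CPM, lay within the WT range of 15.8 to 20.1 CPM. The Sqle call was lost without mutant 2 or WT 1, 3 or 4 (adjusted p up to 0.075), and the Lss call without any single library except mutants 1 and 4 (up to 0.12). With pairs summed, adjusted p was 0.23 for Sqle and 0.31 for Lss.

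Lanosterol then loses methyl groups. Cyp51, the lanosterol demethylase, lies at chr5:4081145-4104746 on the minus strand. It had 51.5, 77.0, 85.2, 65.3 and 64.3 CPM in mutants 1 to 5, and 38.8, 39.4, 29.6 and 30.8 CPM in WT 1 to 4. Every mutant was above every WT library, with mutants 2 and 3 the highest. Cyp51 rose by 0.99 on the log2 scale (SE 0.15, edgeR adjusted p = 0.00055; 0.034 with pairs summed). Cyp51 shares 166 bases with Akap9 on the opposite strand, which had a log2 fold change of -0.02 (edgeR adjusted p = 0.91). Msmo1, the sterol methyl oxidase, lies at chr8:64718139-64733792 on the minus strand. It had 109.8, 123, 117, 98.2 and 85.7 CPM in mutants, and 66.9, 69.8, 59.9 and 61.0 CPM in WT. The genotypes did not overlap, and here mutants 4 and 5 were the lowest mutants. Msmo1 rose by 0.73 on the log2 scale (SE 0.10, edgeR adjusted p = 0.00039; 0.020 with pairs summed). Nsdhl and Hsd17b7 act with Msmo1 to remove these methyl groups. Hsd17b7 was at 32.5 ± 2.50 CPM in mutants and 23.6 ± 0.575 CPM in WT, apart in every library (log2 fold change 0.46, edgeR adjusted p = 0.00093; 0.051 with pairs summed). Nsdhl, at 19.9 ± 2.87 CPM in mutants and 15.8 ± 2.69 CPM in WT, did not pass the test (log2 fold change 0.33, edgeR adjusted p = 0.087).

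The sterol reductases Tm7sf2 and Lbr carry out the same reduction after the Cyp51 step, and Lbr is also a lamin-binding protein of the inner nuclear membrane. Tm7sf2 had 16.8, 17.7, 18.5, 23.6 and 22.5 CPM in mutants, and 15.2, 15.8, 13.1 and 11.9 CPM in WT. All mutants were above all WT libraries, and mutants 4 and 5 were the highest (log2 fold change 0.50, SE 0.13, edgeR adjusted p = 0.013; 0.17 with pairs summed). The interval of Tm7sf2 in the deposited table also covers 9356 bases of Vps51 on the same strand, so its count is uncertain; Vps51 had a log2 fold change of 0.37 (SE 0.20, edgeR adjusted p = 0.19). Lbr was the 1 enzyme with a negative value: 32.0 ± 5.60 CPM in mutants and 35.6 ± 1.39 CPM in WT (log2 fold change -0.16, SE 0.12, edgeR adjusted p = 0.35). Mutant 1, at 23.2 CPM, accounted for most of that spread, the other mutants being at 30.5 to 37.7 CPM.

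The last steps shift, add and reduce double bonds of the sterol. Ebp, the sterol isomerase, averaged 82.4 ± 6.98 CPM in mutants and 63.7 ± 2.26 CPM in WT (log2 fold change 0.37, edgeR adjusted p = 0.0028; 0.095 with pairs summed). Sc5d, the lathosterol desaturase, averaged 111 ± 13.0 CPM in mutants and 85.1 ± 4.22 CPM in WT (log2 fold change 0.38, edgeR adjusted p = 0.0072; 0.11 with pairs summed). Dhcr7, a terminal sterol reductase, had 47.3, 55.5, 53.1, 61.7 and 57.6 CPM in mutants, and 45.5, 39.8, 31.2 and 34.8 CPM in WT. In all 3 genes the genotypes were apart and mutants 4 and 5 were among the highest libraries. The log2 fold change of Dhcr7 was 0.54 (SE 0.11, edgeR adjusted p = 0.0036; 0.088 with pairs summed). With scaling to epithelium genes, log2 fold changes were 0.04 for Ebp, 0.05 for Sc5d and 0.23 for Dhcr7, and none of these passed the test.

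SREBP2 binds sterol regulatory elements in promoters, usually beside sites for NF-Y and Sp1, so the promoters of the members were searched for such letters. RefSeq windows of 300 bases on GRCm38.p6, from 250 before to 50 after the start site, were present for 24 of the 28 genes; Fdps, Fdft1, Sqle and Stard4 had none. On either strand, the sterol element core TCACNCCA was in 3 of the 24 (12.5%), and in 4.97% of 27025 genes with a window. The NF-Y letters CCAAT were in 20 (83.3%), against 41.1% of all genes, and the GC box GGGCGG was in 21 (87.5%), against 38.2% of all genes. All genes here means the 27025 with a window, expressed in this tissue or not, while all 28 members passed the filter on low counts. The part of expression in these shares was not tested. The core and CCAAT occurred together in 3 members (12.5%) and in 2.25% of all genes. Of the 14 genes that rose and have a window, 2 held the core, 13 held CCAAT and 13 held the GC box, so CCAAT and the GC box were frequent also where the core was not found. The windows below show the 3 members with the core (Hmgcs1, Msmo1 and Srebf2). They also show Cyp51, a strongly changed enzyme without an exact match to the core, and Scap, which fell. Capitals mark the sterol element core and CCAAT on either strand (ATTGG on the printed strand where it lies on the other).
Hmgcs1 (chr13:119690101-119690400, plus strand): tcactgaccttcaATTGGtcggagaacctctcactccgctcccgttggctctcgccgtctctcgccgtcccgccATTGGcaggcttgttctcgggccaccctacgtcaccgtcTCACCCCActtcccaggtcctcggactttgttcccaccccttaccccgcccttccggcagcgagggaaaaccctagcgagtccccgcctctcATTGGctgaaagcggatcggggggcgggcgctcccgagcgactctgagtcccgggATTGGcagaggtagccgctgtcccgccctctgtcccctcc
Msmo1 (chr8:64733529-64733828, minus strand): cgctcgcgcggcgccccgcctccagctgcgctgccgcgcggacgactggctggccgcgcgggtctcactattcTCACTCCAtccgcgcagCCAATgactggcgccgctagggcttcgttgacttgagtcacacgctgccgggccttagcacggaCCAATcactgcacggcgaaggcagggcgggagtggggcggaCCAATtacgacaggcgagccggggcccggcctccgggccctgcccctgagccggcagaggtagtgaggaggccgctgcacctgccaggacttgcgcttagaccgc
Srebf2 (chr15:82147019-82147318, plus strand): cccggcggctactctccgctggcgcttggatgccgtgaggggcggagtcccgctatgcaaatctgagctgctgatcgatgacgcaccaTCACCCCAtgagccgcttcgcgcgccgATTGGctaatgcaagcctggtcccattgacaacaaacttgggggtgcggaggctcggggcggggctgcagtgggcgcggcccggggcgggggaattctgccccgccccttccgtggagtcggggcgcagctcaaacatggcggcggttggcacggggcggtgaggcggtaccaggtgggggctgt
Cyp51 (chr5:4104648-4104947, minus strand): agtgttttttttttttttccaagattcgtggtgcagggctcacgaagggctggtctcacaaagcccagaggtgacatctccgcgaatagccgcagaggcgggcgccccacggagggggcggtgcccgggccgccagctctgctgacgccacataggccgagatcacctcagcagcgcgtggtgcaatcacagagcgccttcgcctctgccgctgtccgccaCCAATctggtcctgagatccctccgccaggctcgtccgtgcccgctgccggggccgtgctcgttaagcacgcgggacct
Scap (chr9:110333038-110333337, plus strand): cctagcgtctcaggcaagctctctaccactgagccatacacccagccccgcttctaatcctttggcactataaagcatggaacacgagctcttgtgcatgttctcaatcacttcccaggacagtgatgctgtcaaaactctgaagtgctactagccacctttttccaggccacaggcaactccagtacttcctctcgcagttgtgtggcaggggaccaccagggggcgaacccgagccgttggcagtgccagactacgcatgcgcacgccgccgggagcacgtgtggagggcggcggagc
In Hmgcs1 the core starts 137 bases before the start site, with 4 CCAAT matches in the window. In Msmo1 it starts at -177 with 3 CCAAT matches, and in Srebf2 at -162 with 1. The Cyp51 window has a CCAAT at -29 only, and the Scap window has neither. A match describes letters in a window and not binding. Only exact matches within these windows were sought, so a missing match does not show that a gene lacks a sterol element.

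Among the genes that sense sterols and release SREBP2, Scap fell and the other 5 did not pass the test. Srebf2, which encodes SREBP2, lies at chr15:82147181-82205379 on the plus strand. It had 129.8, 186, 179, 130.0 and 128 CPM in mutants 1 to 5, and 128, 121, 118 and 114 CPM in WT 1 to 4. Only mutants 2 and 3 stood clearly above the WT libraries, and the other 3 mutants were at the top of the WT range. The log2 fold change of 0.33 (SE 0.12) did not pass the test (edgeR adjusted p = 0.065). It passed without mutant 4 (adjusted p = 0.045), without mutant 5 (0.042), without both (log2 fold change 0.46, 0.015) and with no low-count filter (0.047). Without the pair of mutants 2 and 3 the log2 fold change was 0.12 (adjusted p = 0.17), with pairs summed 0.30 (0.34), and with scaling to epithelium genes 0.0083 (0.97). Scap, the escort of SREBP2, lies at chr9:110333288-110384950 on the plus strand. It had 39.5, 43.2, 44.0, 40.0 and 40.9 CPM in mutants, and 48.6, 50.2, 54.8 and 54.3 CPM in WT. Every mutant was below every WT library, with little spread in either genotype. Scap fell by 0.32 on the log2 scale (SE 0.07, edgeR adjusted p = 0.0032; 0.13 with pairs summed), and by 0.66 with scaling to epithelium genes (adjusted p = 0.0013).

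The site-1 protease gene Mbtps1 had 82.0, 85.0, 85.3, 93.8 and 93.9 CPM in mutants, and 96.8, 97.7, 96.7 and 95.9 CPM in WT. The genotypes did not overlap, yet the difference was small, with a log2 fold change of -0.14 (SE 0.06, edgeR adjusted p = 0.12). With scaling to epithelium genes Mbtps1 fell by 0.47 (adjusted p = 0.0035). The site-2 protease gene Mbtps2 had the same mean, 12.3 CPM, in both genotypes (SD 0.775 in mutants and 1.24 in WT). Insig1, an SREBP2 target that retains the SCAP complex, had 47.1, 72.0, 73.6, 74.2 and 69.3 CPM in mutants, and 57.9, 59.3, 61.3 and 60.8 CPM in WT. In Insig1, 4 mutants were above all WT libraries and mutant 1 was below all of them. The log2 fold change was 0.17 (SE 0.12, edgeR adjusted p = 0.30), and without mutant 1 it was 0.26 (adjusted p = 0.0083). Insig2, a relative of Insig1, had 46.7, 36.0, 31.9, 53.6 and 55.1 CPM in mutants, and 41.9, 41.5, 44.5 and 44.3 CPM in WT. Mutants 2 and 3 lay below the WT libraries and mutants 1, 4 and 5 above them, so the mean hardly moved (log2 fold change 0.05, SE 0.15, edgeR adjusted p = 0.82). Without mutants 2 and 3 it was 0.28 (adjusted p = 0.026).

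**Figure D3:**
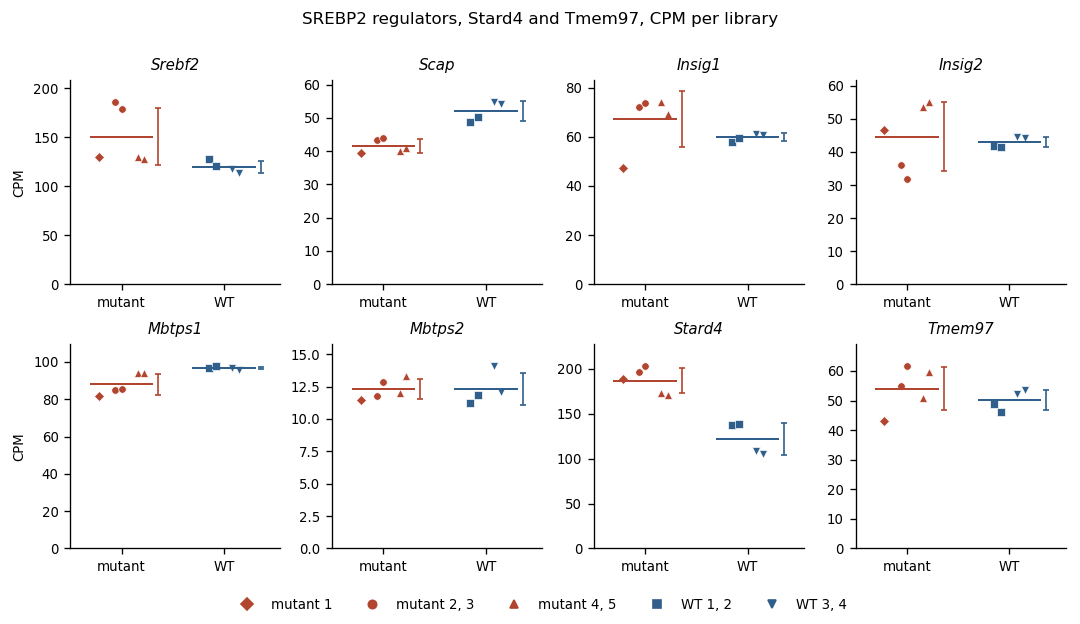
CPM of the 6 genes of SREBP2 and its processing and of Stard4 and Tmem97 in each library, mutants left and WT right in each panel, with 1 point per library, shaped by close pair, a line at the mean and a bracket for the SD. Scap and Mbtps1 are lower in every mutant than in any WT library, Stard4 is higher in every mutant, and Insig2 is split among the mutants.

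Stard4 encodes a soluble protein that carries cholesterol between membranes. It had 189, 196, 203, 174 and 171 CPM in mutants 1 to 5, and 137, 139, 109 and 105 CPM in WT 1 to 4. All mutants were above all WT libraries, and WT 3 and 4 were below WT 1 and 2. Stard4 rose by 0.61 on the log2 scale (SE 0.10, edgeR adjusted p = 0.00091; 0.038 with pairs summed; 0.29 with scaling to epithelium genes, adjusted p = 0.019). Tmem97, the sigma-2 receptor, which binds the lysosomal cholesterol transporter NPC1, had 54.0 ± 7.40 CPM in mutants and 50.2 ± 3.42 CPM in WT, and overlapped between genotypes (log2 fold change 0.11, edgeR adjusted p = 0.45).

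Per kilobase of gene length in the table, the members differed widely in level. Tmem97 was the highest, at 39.3 CPM per kb in mutants and 36.5 in WT, followed in mutants by Ebp (35.7, against 27.6 in WT), Stard4 (33.4, against 21.9) and Hmgcs1 (28.9, against 14.7). Fdps was the lowest, at 0.401 CPM per kb in mutants and 0.240 in WT, though its level is uncertain because of its pseudogene copy. Mbtps2 was at 1.22 in both. Gene length ran from 1375 to 10787 bases over the members. Across the 28 genes, the log2 fold change and gene length had a Spearman rho of -0.14, and across the 8631 genes at 10 CPM or more the rho was -0.35, so longer genes were on the whole lower in mutants; genes are not independent replicates, and the part of length in these results was not tested.

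The mutant libraries did not share 1 pattern over the pathway. Mutants 2 and 3 were the highest pair of the 9 libraries in 15 of the 28 genes (53.6%), against 5.43% of all genes tested. These were Hmgcs1, Mvk, Pmvk, Mvd, Idi1, Fdps, Fdft1, Sqle, Lss, Cyp51, Msmo1, Nsdhl, Hsd17b7, Srebf2 and Stard4. Mutants 4 and 5 were the highest pair in Tm7sf2, Ebp, Sc5d, Dhcr7 and Insig2, 5 genes (17.9%), against 14.1% of all genes. The share for mutants 4 and 5 is close to that of all genes. Mutant 1 was the lowest mutant in 17 genes (60.7%), against 23.7% of all genes. Among WT, libraries 3 and 4 were both below libraries 1 and 2 in 19 genes (67.9%), against 34.1% of all genes. Of the 15416 genes tested, 8631 have a mean of 10 CPM or more, as do 27 of the 28 members. Close pairs are less likely to stay together in weakly expressed genes, so the shares of all genes are an unlike reference. The part of expression level in these shares was not tested. Relative to the WT mean, the median log2 difference over the 20 enzymes was 0.70 in mutants 2 and 3, with all 20 above 0, 0.50 in mutants 4 and 5, with 19 above 0, and 0.33 in mutant 1, with 18 above 0. The members' share of all reads was 0.127%, 0.178%, 0.177%, 0.147% and 0.145% in mutants 1 to 5, and 0.124%, 0.126%, 0.112% and 0.113% in WT 1 to 4. What sets these groups of libraries apart was not tested.

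**Figure D4:**
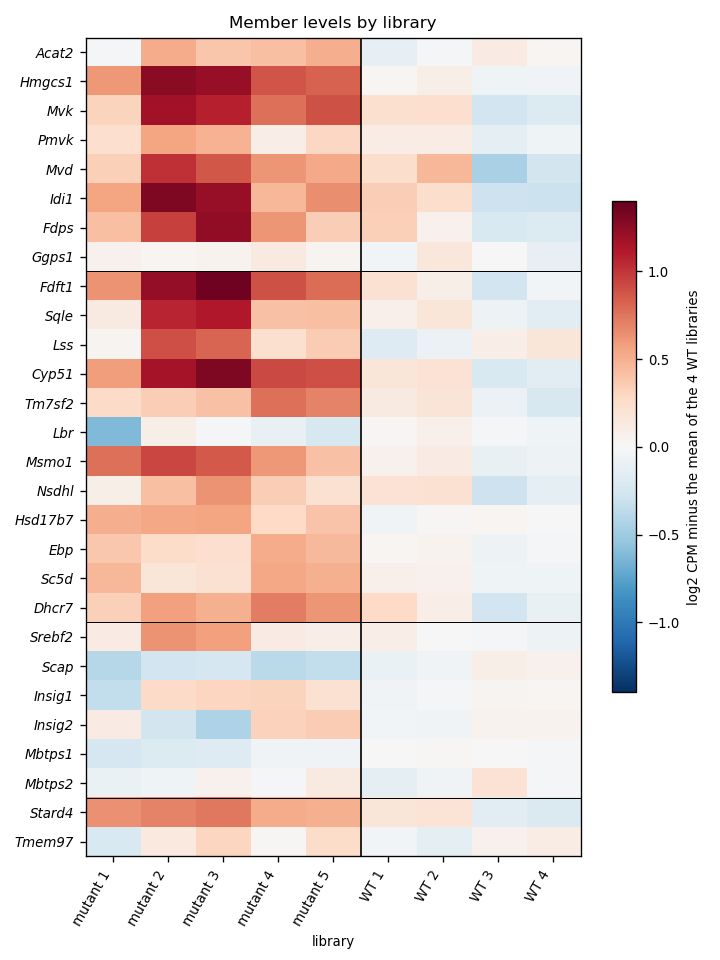
Log2 CPM of each of the 28 genes in each library relative to the WT mean of that gene, mutants left of WT, genes in pathway order; red is higher and blue lower. Mutants 2 and 3 are the highest pair in 15 genes from Hmgcs1 to Stard4, mutants 4 and 5 in Tm7sf2, Ebp, Sc5d, Dhcr7 and Insig2, and mutant 1 is the lowest mutant in 17 genes.

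Related genes around the pathway were read against all genes tested, of which 15.4% rose and 17.1% fell. Among genes with a mean of 10 CPM or more, 23.8% rose and 11.4% fell. All tested genes of the isoprenoid and sterol sensing lists reach that level. Of 12 genes of the isoprenoid branches, which make dolichol, ubiquinone and prenylated proteins, 6 rose and none fell (median log2 fold change 0.20). They include Fnta, the shared subunit of the farnesyl and geranylgeranyl transferases, at 64.3 ± 2.42 CPM in mutants and 48.0 ± 2.43 CPM in WT (log2 fold change 0.42, edgeR adjusted p = 0.00044). Pdss1 and Pdss2, which build the ubiquinone side chain, rose by log2 0.38 and 0.41, and Rce1, which trims prenylated proteins, by 0.40. Of 8 other SREBP2 targets, 2 rose and 1 fell (median 0.20). Rdh11, a retinol dehydrogenase, rose by 0.43 (edgeR adjusted p = 0.0033) and Acss2, which makes acetyl-CoA from acetate, by 0.27 (0.017), while Fads1, a fatty acid desaturase, fell by 0.50 (0.022). Of 13 tested genes of sterol sensing and degradation in the endoplasmic reticulum, 2 rose (Erlin1 by 0.29 and Ufd1 by 0.25) and none fell (median 0.19). That share of risers equals the 15.4% of all genes and is below the 23.8% of genes at 10 CPM or more. None of 5 cofactor genes (Nfya, Nfyb, Nfyc, Sp1 and Creb1) passed the test in edgeR or DESeq2, and none had an unadjusted p under 0.05 in edgeR (median -0.06).

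In the lists of genes that handle finished sterol, at most 2 genes of a list passed in either direction. Of 9 genes of sterol uptake, esterification and oxysterol formation, 2 rose and 1 fell (median 0.14). Npc1l1, the cholesterol uptake transporter of enterocytes, rose by 0.42, and Sult2b1, a sterol sulfotransferase, by 0.53 (edgeR adjusted p = 0.0041). Soat1, which esterifies cholesterol, fell by 0.46 (edgeR adjusted p = 0.0039), with means of 17.9 CPM in mutants and 24.7 CPM in WT. Its relative Soat2 was far more abundant, at 254.5 ± 30.4 CPM in mutants and 227.8 ± 37.4 CPM in WT. Soat2 did not pass the test (log2 fold change 0.16, edgeR adjusted p = 0.34). Of 8 genes of the oxysterol receptor LXR and its targets, 2 rose and 2 fell (median -0.08). Mylip, which marks lipoprotein receptors for degradation, fell by 1.37. The sterol exporter gene Abcg1 fell by 1.07, at a low level of 1.08 CPM in mutants and 2.29 CPM in WT. Abcg5 and Abcg8 of the same list were far more abundant and did not pass the test. Abcg5 averaged 420 ± 139 CPM in mutants and 428.5 ± 69.9 CPM in WT (log2 fold change -0.03, edgeR adjusted p = 0.94). Abcg8 averaged 363 ± 108 CPM in mutants and 398 ± 48.0 CPM in WT (-0.13, 0.66). Lpcat3, a phospholipid remodelling enzyme, rose by 0.34 and Srebf1, which encodes SREBP1, by 0.25 (edgeR adjusted p = 0.020). Abca1, a sterol exporter, had 50.7, 14.8, 14.2, 22.6 and 23.8 CPM in mutants, and 46.8, 45.0, 48.7 and 50.9 CPM in WT. It was low in 4 mutants and at the WT level in mutant 1, and did not pass the test (log2 fold change -0.93, edgeR adjusted p = 0.075). Abca1 passed without mutant 1 (log2 fold change -1.36, adjusted p = 0.00038), with pairs as a random effect (-0.97, 0.030) and with scaling to epithelium genes (-1.30, 0.0093), but not with pairs summed (-0.71, 0.49). Of 8 genes of fatty acid synthesis, the program of SREBP1, 1 rose and 2 fell (median 0.09). Me1, which supplies NADPH, rose by 0.65, whereas Acly, which makes cytosolic acetyl-CoA, fell by 0.63 and Thrsp by 0.94. With close pairs summed, 1 fatty acid synthesis gene rose, 1 fell and 1 LXR target fell, and no gene of the other related lists passed in either direction in edgeR; at an unadjusted p under 0.05 these included Fnta, Rdh11, Sult2b1 and Npc1l1, higher, and Soat1 and Fads1, lower. With scaling to epithelium genes, no gene of the related lists rose in edgeR, so that every rise named here was lost (Me1 alone was higher at an unadjusted p under 0.05), and the list medians were -0.44 to -0.13. Srebf1, Acss2, Erlin1 and Ufd1 then had negative values, while Fads1, Soat1, Mylip, Abcg1, Acly and Thrsp fell in that scaling too. Macrophage and dendritic cell genes summed to 53.9 to 111 CPM in mutants and 641 to 714 CPM in WT, and their part in the lower Abcg1, Mylip and Soat1 levels was not tested.

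**Figure D5:**
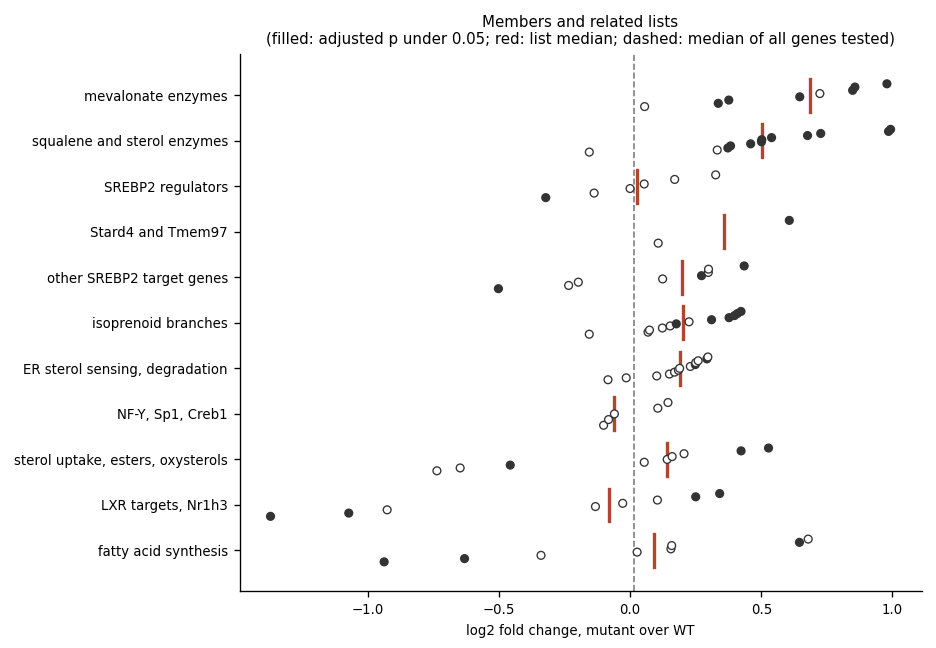
Log2 fold change, mutant over WT, of each tested gene of the member groups and related lists, with 1 point per gene, filled where it passed the test, a red line at the list's median and a dashed line at the median of all genes. The mevalonate and sterol enzymes have medians of 0.69 and 0.50, and the related lists have medians from -0.08 to 0.20.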

How the data were processed

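Trizol-extracted RNA was selected on poly-T beads and primed with random hexamers, per the labels' protocols; the second strand was made with dTTP, so strand is not marked. HISAT2 2.0.5 and featureCounts 1.5.0-p3 are named in the submitters' processing notes, with the builds GRCh37, hg19 and mm39. The coordinates of the deposited table instead matched GENCODE M21 on GRCm38, which holds 54409 of the 54532 identifiers, 53499 with identical intervals, including 27 of the 28 members (Tm7sf2 is the exception). How shared reads were treated is not given in the sources used here. Values deposited by the authors are raw counts, not normalized. Symbols stored as dates, 27 in all, were renamed by gene identifier.

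Counts were tested in R 4.3.3 with edgeR 4.0.16 (TMM scaling, default expression filter, robust quasi-likelihood fit, genotype as the only term), with Benjamini-Hochberg adjustment over all 15416 genes tested. The SE is the size of the coefficient over the root of its F statistic. CPM are on TMM-scaled library sizes. Nothing in the labels beyond the mouse numbers shows that libraries are separate animals, so p-values measure the spread between these libraries, which may be technical. Floors cover counting error only. Alternatives were relative log expression scaling, other low-count filters (none, and 1 CPM in 4 libraries), DESeq2 1.42.0, the mouse number as a block, close pairs summed, modelled as a random block (voom in limma 3.58.1) or left out, removal of acinar and immunoglobulin genes, scaling to epithelium genes, and leaving out each library. A close pair had a coefficient of variation under 0.1 over genes with at least 20 reads.

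The members and gene lists were chosen with earlier results of these data known. Named genes are all 28 members and up to 4 called genes of each related list by smallest p, with Srebf1. Abca1, Abcg5, Abcg8, Soat2, Ctsb, Akap9, Arid4b, Vps51 and the cofactor genes were named after their values were seen. Npl4 and Spring1 of the sterol sensing list were not matched by symbol. Some genes of the pathway are not reported here. Promoter windows are from RefSeq.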

Additional observations from a re-analysis of the deposited data

Results flagged for a closer look

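In 2 of the 56 groups examined (28 genes in each genotype), 1 library stood far from the others of its genotype. Chance meets the criterion in about 1 group in 20 where libraries are independent. Both were mutant 1, the only library outside the close pairs. A library with a close partner can hardly meet the criterion, so that rate does not apply here and mutant 1 was the likeliest to be flagged. Acat2 was at 19.2 CPM in mutant 1 and at 25.4 to 27.7 CPM in the other 4 mutants, a gap of 0.721 of the whole range. Insig1 was at 47.1 CPM in mutant 1 and at 69.3 to 74.2 CPM in the other 4 mutants, a gap of 0.822 of the whole range.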

How the results depend on the processing

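Relative log expression scaling, both other filters, DESeq2 and removal of acinar and immunoglobulin genes left 14 to 17 members higher and 1 lower, within 1.5 times of the 17 and 1 reported. In these fits 2217 to 2463 of all genes rose and 2549 to 3040 fell, with 14212 to 28269 genes tested. Leaving out each library in turn gave 12 to 18 members higher and 1 lower, beside 1778 to 2280 higher and 2271 to 2609 lower among all genes tested. In these fits 13 to 18 members had mutants above WT throughout and 2 below. Among all genes tested, 2321 to 2524 were above and 2598 to 2904 below. With close pairs summed, edgeR called 5 members higher and 0 lower (385 genes higher and 1173 lower overall), with Scap at an unadjusted p of 0.023. With the pair as a random block, 11 members were higher (1172 genes higher and 1644 lower overall). Without WT 3 and 4, 8 members were higher (1451 genes higher overall). Without mutants 4 and 5, 16 members were higher and 2 lower, beside 2138 higher and 2417 lower among all 15582 genes tested. With scaling to epithelium genes, 6 members were higher and 3 lower, beside 360 higher and 5608 lower among all genes tested. In that scaling 5 members had mutants above WT throughout and 3 below, beside 291 above and 5122 below among all 15416 genes. Across genotypes, deviations from the genotype mean correlated at 0.033, 0.138, -0.137 and 0.118 for mouse numbers 1 to 4, and at -0.15 to 0.149 for unlike numbers. Mutants 2 and 3 correlated positively with WT 1 and 2 and negatively with WT 3 and 4, and mutants 4 and 5 did the reverse. With the number as a replicate block, 15 members were higher and 1 lower, with Acat2, Pmvk and Tm7sf2 lost and Srebf2 gained. Among all genes tested, 1738 were then higher and 2222 lower. Mutant 5 has no WT library of its number, so it adds nothing to the genotype contrast in that fit. The labels do not say that like numbers are paired.

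Signs turned under epithelium scaling or in genes near 0. Under epithelium scaling log2 fold changes were -0.27 for Ggps1, -0.15 for Insig1, -0.29 for Insig2, -0.22 for Tmem97, -0.083 for Srebf1, -0.058 for Acss2, -0.042 for Erlin1 and -0.095 for Ufd1. Ggps1 was at -0.0089 without WT 3 and 4. Insig2 was at -0.060 with the replicate block, -0.17 without mutants 4 and 5, and -0.034 to 0.15 without single libraries. Mbtps2 was at 0.013 with no filter, 0.015 with the random block, 0.0070 without mutants 2 and 3, 0.090 without WT 3 and 4, and -0.046 to 0.067 without single libraries. The cause was not tested. The low count limits Fdps, which had 223 reads over the 9 libraries, and the treatment of reads shared with its pseudogene is not known.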
